A study of Forsythia koreana with 2 samples.

Results

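In the flowers of Forsythia viridissima var. koreana, 208 of the 69458 assembled transcripts held 100 or more reads and yet had no read at all in leaf. They were chosen by that rule, an expected count of 100 or more in the flower library and exactly 0 in the leaf library, so their absence from leaf is how they were selected and not a finding. An expected count is the number of sequenced fragments that the program RSEM assigned to a transcript. There was 1 library of flower and 1 of leaf, both from untreated plants of this yellow-flowered shrub that the labels give as 2 years old and grown outdoors in Japan. Neither library is said to be a single plant or a pool. Expected counts summed to 5466947 in flower and 4982637 in leaf. A single library of each tissue gives no replicate error and allows no test between tissues, so every value describes these libraries alone.

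The genus Forsythia flowers in early spring, before its leaves have fully opened. A flower combines petals, sepals, stamens with pollen, and a pistil. Several of these hold cell types that a leaf blade lacks, so a flower library can contain RNA from many specialised cells at once. A leaf library is dominated by photosynthetic cells. Forsythia is used medicinally and is known for its lignans, which are made from pairs of phenylpropanoid units. In bulk tissue, fewer cells of a type and less RNA per cell cannot be told apart. The transcripts here carry identifiers of a de novo assembly, in which reads are joined into sequences without a genome. The files pair no identifier with a gene name, sequence or position, and none is known from another source used here, so no transcript is given a name or a role, and the tissue labels could not be checked against marker genes.

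The identifiers do give 3 nested levels of assembly, in the style of the assembler Trinity, which names alternative paths through shared sequence as isoforms. Transcripts with the same stem before the isoform number were taken as 1 locus, loci with the same stem before the locus number as 1 component, and components with the same first field as 1 assembly group, a term used here for that field. The 208 transcripts fell into 171 loci, 163 components and 155 assembly groups, out of 56696, 50810 and 47175 in the whole set. They are therefore not 208 independent genes. When counts were first summed per locus, 164 of the 9707 loci with 100 or more flower counts had none in leaf, or 1.69%.

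Of the 10598 transcripts with 100 or more flower counts, these 208 made up 1.96%, a share that the selection rule sets. Together they held 109717 flower counts, or 2.01% of the flower library, and 2.71% of its TPM, the length-corrected share of transcripts. Flower counts ran from 100 to 7292, with a median of 257.5 and quartiles of 155.5 and 614.25. A total of 62 transcripts had 500 or more counts, 23 had 1000 or more and 8 had 2000 or more. The sum was unevenly spread, since the 10 with the most reads held 31.1% of it and the top 20 held 43.5%.

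**Figure D1:**
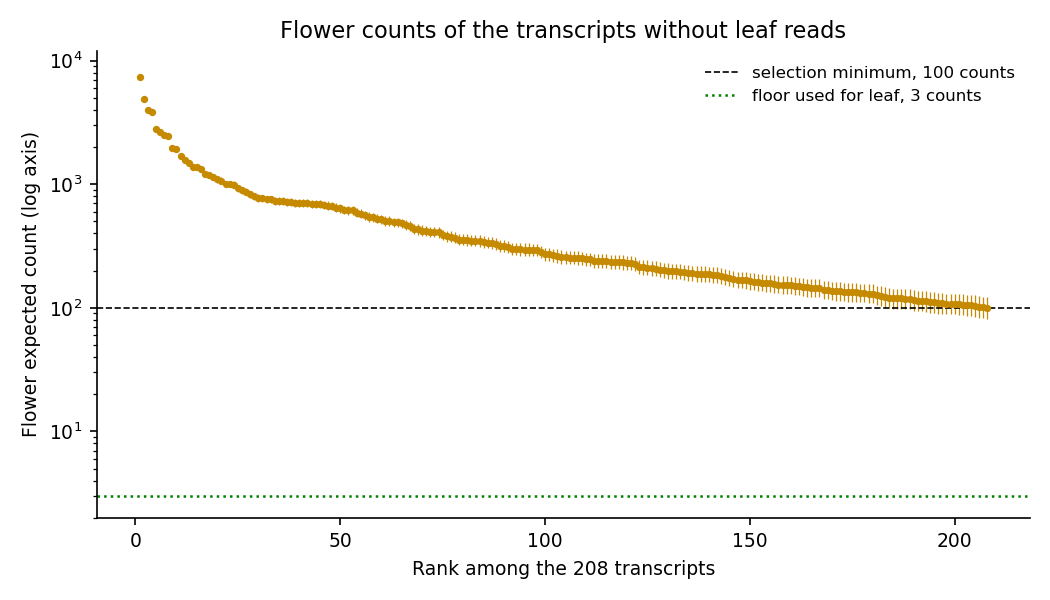
Flower expected count (log axis) of each of the 208 transcripts in rank order, with exact 95% Poisson intervals as bars; the dashed line is the selection minimum of 100 counts and the dotted line the floor of 3 counts used for leaf. The counts fall from 7292 to 100, and 23 points lie at 1000 or more.

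Because the leaf count was 0, a flower to leaf ratio can only be given as a lower bound. The bound was computed against a floor of 3 counts in the leaf library, after scaling by the library totals, and 3 leaf counts equal a CPM of 0.602. On this scale the flower level was at least 30.4-fold higher than leaf for the transcript with the fewest reads and at least 2215-fold higher for the one with the most, with a median bound of 78.2-fold. The lower limits of the exact 95% intervals of the count ratio ranged from 24.3 to 1801. They lie below the values at the floor, because the Poisson upper limit for a count of 0 is 3.69. The interval limits cover counting error only and say nothing of variation between plants.

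The transcript with the most reads, TR23322|c0_g1_i1|c0_g1_i1, held 7292 flower counts, with a 95% Poisson interval of 7126 to 7461, and no leaf count. It is 1338 bases long and alone in its assembly group. The next, 2058 bases long, held 4842 flower counts, and its locus partners of 721 and 506 bases held 459 and 260 in flower and 1 each in leaf. Next came one of 979 bases with 3972. The next pair, of 1130 and 969 bases, belong to the same component and held 3811 and 2816. The other 5 of the 10 with the most reads held 2619, 2485, 2445, 1965 and 1918 counts and were 1265 to 1997 bases long. Of these 10 transcripts, 9 were the only transcript of their locus and 4 the only one of their assembly group.

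Levels per length put other transcripts first. FPKM, the count per kilobase of effective length, scaled to the size of the library, ranged from 8.42 to 1486 in flower, with a median of 69.2 and quartiles of 31.1 and 150.3. A total of 74 transcripts reached an FPKM of 100, 14 reached 500 and 3 reached 1000. The highest FPKM was that of TR23539|c3_g1_i3|c0_g1_i1, a 300-base transcript with 1093 flower counts and 0 in leaf. TR23322|c0_g1_i1|c0_g1_i1 followed at 1138, and a 280-base transcript with 693 counts came next at 1103. Of the 10 highest by FPKM, 7 were shorter than 500 bases, and 3 were also among the 10 with the most counts.

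This order depends on the effective length, which RSEM makes from the length less the mean fragment size and which becomes small for short transcripts. The effective length of the 300-base transcript was 134.5 bases. Per kilobase of plain length, an ordering added after seeing the data, the 1338-base transcript came first with 5450 counts per kilobase, the 979-base one next with 4057 and the 300-base one after it with 3643. The lists of 10 by FPKM and by plain length shared 7 transcripts. Within the whole flower library, the best placed of the 208 was ranked 25 by TPM and the median one 2323. A total of 7 were among the 100 most abundant flower transcripts and 55 among the top 1000.

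The transcripts without leaf reads were shorter than the other abundant flower transcripts. Their median length was 1166 bases (quartiles 665.5 and 1674), against 1643 bases (1140 and 2282) for the 10390 others with 100 or more flower counts. The 1041 abundant transcripts that were flower-high but still read in leaf lay between, at 1445 bases (994 and 2067). Flower-high here means a log2(FPKM + 1) higher in flower by 2 or more, which 11.8% of all transcripts with 100 or more flower counts met, and which the selection rule made all 208 meet. Lengths ran from 232 to 4918 bases, and 30 of the 208 were under 500 bases while 23 had 2000 or more. The 3 shortest, of 232, 235 and 263 bases, held 144, 158 and 132 flower counts. The 3 longest, of 4918, 4219 and 3664 bases, held 506, 431 and 1486.

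**Figure D2:**
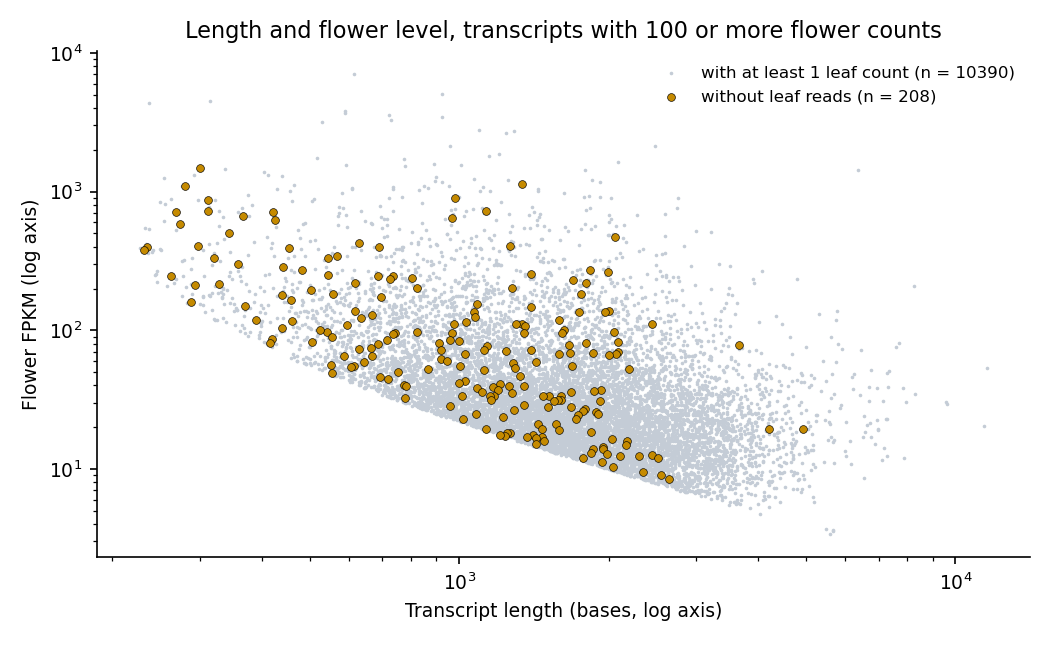
Flower FPKM against transcript length (both log axes) for the 10598 transcripts with 100 or more flower counts, with the 208 without leaf reads in amber and the others in grey. The amber points have a median length of 1166 bases against 1643 for the grey ones and a median FPKM of 69.2 against 29.3; the sloping lower edge is the minimum of 100 counts.

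Among abundant flower transcripts, the share without a leaf read fell with length. It was 18.4% for those under 300 bases (9 of 49), 9.95% from 300 to under 500 bases (21 of 211) and 3.11% from 500 to under 1000 (55 of 1768). From 1500 to under 2000 bases it was 1.79% and from 3000 bases 0.276%, which was 3 of 1087. The share varied less with the flower count. It was 1.65% at 100 to 199 counts, 1.74% at 200 to 499 and 3.23% at 500 to 999, and 3.52% from 2000 to under 5000 counts, where 7 of 199 had no leaf read. By FPKM it was 1.13% at 10 to under 20 and 3.52% at 100 to under 200, with 14 of 175 lacking leaf reads at an FPKM of 500 or more. In each of the 7 FPKM ranges the transcripts without leaf reads had a shorter median length than the range as a whole. At a given count a short transcript has a higher FPKM, so these shares by length and by FPKM are not separate observations. Nor are the transcripts independent, since several of the short ones are isoforms of 1 locus, such as 4 of 300 to 367 bases.

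**Figure D3:**
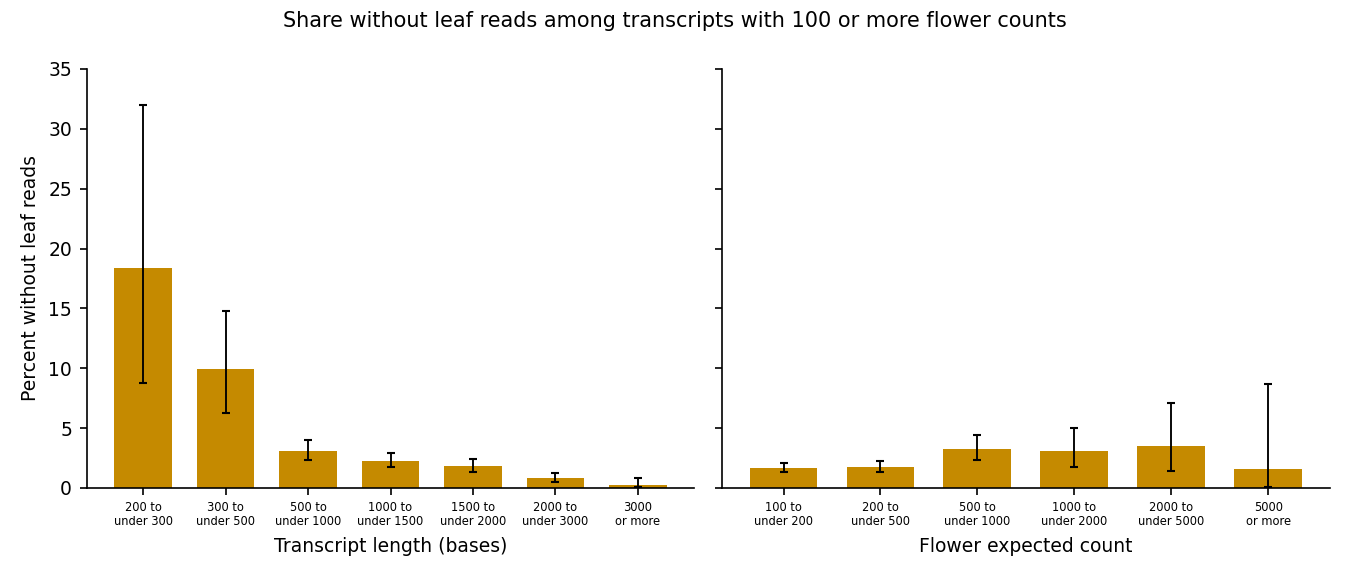
Percent of transcripts with 100 or more flower counts that had no leaf read, by length (left) and by flower count (right), with exact 95% binomial intervals as bars. The share is 18.4% under 300 bases and 0.276% from 3000 bases, and lies between 1.61% and 3.52% across the count ranges.

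At the edges of the rule, the transcripts on either side differed by 1 read. The lowest flower counts inside were 100, 101 and 102, for transcripts of 1210, 1235 and 1130 bases. Just outside, 1 transcript of 1061 bases had 99 flower counts and 2 had 98, all with no leaf read. On the leaf side, 78 transcripts with 100 or more flower counts had 1 leaf read, 47 had 2 and 29 had 3. The largest of those with 1 leaf read held 5216, 5128 and 4084 flower counts, at lengths of 1796, 1100 and 865 bases, so some transcripts with far more flower reads than most of the 208 missed the rule by a single leaf read. In the opposite direction 3 of 8844 transcripts with 100 or more leaf counts had no flower read (0.0339%). These held 124, 164 and 186 leaf counts, and none had as many reads in leaf as the median of the 208 had in flower.

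Of the 208 transcripts, 120 were alone in their locus and 77 alone in their assembly group. A total of 88 (42.3%) had a locus partner, against 47.8% of the other abundant flower transcripts and 44.9% of the flower-high ones read in leaf. The exact 95% interval of 42.3% runs from 35.5% to 49.3% and takes in both other shares. It treats the 208 as independent, though 63 of them share a locus with another of the 208. No conclusion on a difference is therefore drawn from it. Skipped isoform numbers, where the highest number exceeds the number of listed transcripts, occurred in 46 of the 171 loci (26.9%). They occurred in 34.5% of all 8624 loci with a transcript of 100 or more flower counts. The origin of these gaps is not given and was not tested.

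The 77 transcripts alone in their assembly group have no listed relative in the assembly. They had a median flower count of 241, a median FPKM of 52.2 and a median length of 1139 bases. A further 58 had partners in the assembly group but no leaf read on any of them, with a median flower count of 295, a median FPKM of 78.8 and a median length of 1382 bases. Of these 58, 31 had a partner outside the 208, and for the others the rule itself fixes the 0. The remaining 73 had at least 1 leaf read elsewhere in the assembly group, with a median FPKM of 81.0 and a median length of 1130 bases. A locus without any leaf read held 183 of the 208 (88.0%), but 163 of these 183 lay in loci made up of the 208 alone, where the rule itself fixes the 0. Of the 45 with a locus partner outside the 208, 20 had no leaf read on such a partner. At the level of the assembly group it was 31 of 104.

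A total of 63 transcripts shared a locus with another of the 208, in 26 loci that held 2 to 4 of them each. Their flower levels within a locus were compared among the 208 only, so isoforms below the flower minimum or read in leaf were left out. The ratio of the highest to the lowest FPKM had a median of 1.46 over the 26 loci and a range of 1.01 to 6.85, and it was 2 or less in 20. Leaving out scarcer isoforms can lower this ratio, and none was computed for loci of other abundant flower transcripts. Whether these levels were nearer to each other than in other loci was therefore not tested. One locus consisted of a pair of 1967 and 2004 bases with 1326 and 1389 flower counts. Another held 4 short transcripts of 300 to 367 bases, with 577, 701, 734 and 1093 counts, among them the one with the highest FPKM. Of the 26 loci, 19 held no transcript outside the 208. Of the 7 that did, 4 had leaf reads on it and 3 had none. Every expected count was a whole number, and the sources used here do not say whether they were rounded or how reads shared between isoforms were placed, so levels within a locus are uncertain.

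Partners of the same locus that were themselves not among the 208 numbered 50, and 25 of these had under 100 flower counts. Of these scarcer partners, which held as few as 2 flower counts, 23 also had no leaf read. The share over all transcripts with under 100 flower counts was not computed. The 25 partners with 100 or more flower counts all had leaf reads by the definition of the rule, and 15 of them had 1 to 3. Among all 10390 abundant flower transcripts read in leaf, 78 had 1 leaf read, 47 had 2 and 29 had 3. The 50 together held 24327 flower counts and 603 leaf counts. Leaf reads in a locus that held one of the 208 were therefore mostly few, and 1 partner alone had 100 or more.

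**Figure D4:**
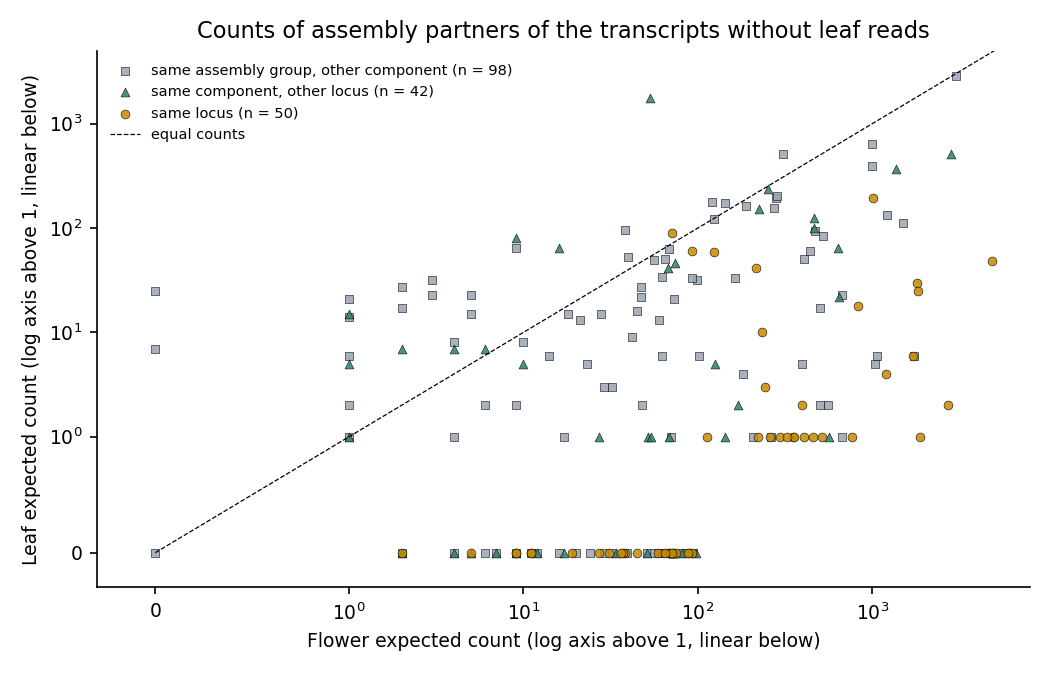
Leaf against flower expected counts (axes logarithmic above 1 count and linear below) of the 190 transcripts that share a locus, component or assembly group with one of the 208, with equal counts as a dashed line. Of the same-locus partners 23 of 50 lie at 0 leaf counts, against 14 of 42 in another locus of the component and 23 of 98 in another component. Partners with 100 or more flower counts cannot lie at 0 by the rule, and these make up 25 of the 50 same-locus partners. They make up 68 of all 190, so the shares are not like for like.

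Partners with 20 to 99 flower counts were not themselves chosen by the rule, and they can be set beside the same kind of partner of other abundant flower transcripts. In the same locus, 16 of 18 such partners of the 208 had no leaf read, or 88.9% (exact 95% interval 65.3 to 98.6). Among such partners of the flower-high transcripts read in leaf it was 15 of 190, or 7.89% (4.49 to 12.7), and among those of all abundant flower transcripts read in leaf 0.947%. Over all transcripts with 20 to 99 flower counts, 3.82% had no leaf read. Partners of a locus share sequence, so they are not independent of the transcript they belong to, and the intervals treat them as if they were. Several of the 16 came from the same locus. A partner whose locus holds both kinds of transcript was counted in both sets, so the sets compared share some partners.

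The same order was found for partners in other loci. In another locus of the same component, 9 of 16 partners with 20 to 99 flower counts had no leaf read (56.2%, 29.9 to 80.2), against 16.2% for the flower-high transcripts read in leaf and 1.57% for all those read in leaf. In another locus of the same assembly group it was 24 of 53 (45.3%, 31.6 to 59.6), against 15.9% and 2.17%. The share was thus highest within the locus and lower in each wider level for the 208, with overlapping intervals between neighbouring levels. The levels are not separate sets. Partners in the assembly group include those in the component, and some partners count both within a locus and at a wider level.

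**Figure D5:**
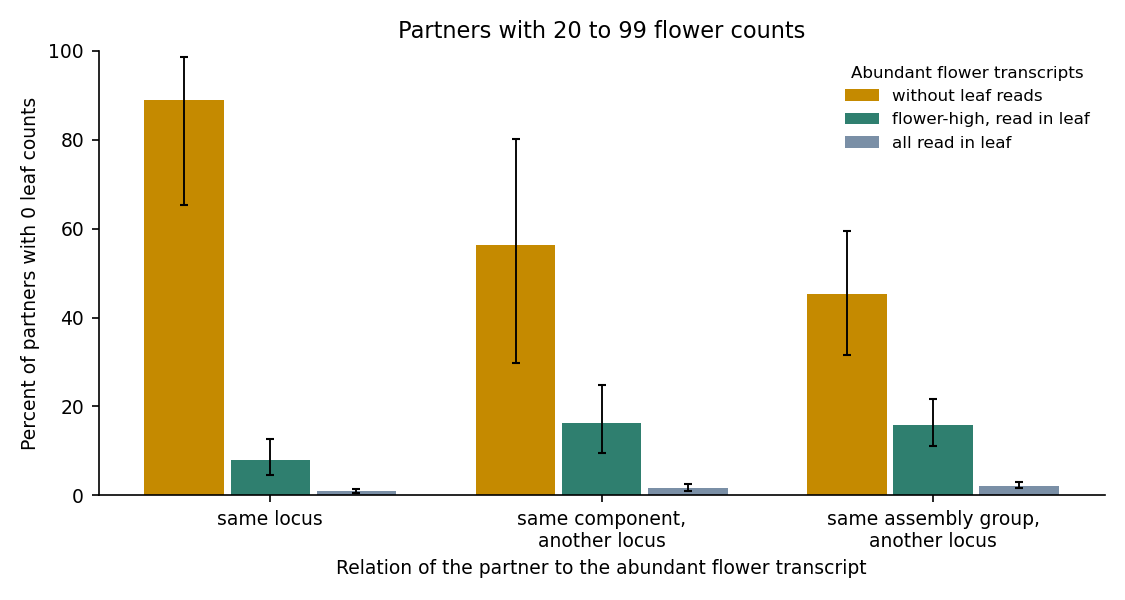
Percent of partners with 20 to 99 flower counts that had 0 leaf counts, by their relation to an abundant flower transcript, with exact 95% binomial intervals as bars; amber is for partners of the 208, green for those of flower-high transcripts read in leaf and grey-blue for those of all abundant flower transcripts read in leaf, which include the green set. The amber bars stand at 88.9%, 56.2% and 45.3%, and each lies above the green bar beside it. The bars are not separate sets, since a partner can recur across relations and colours. The transcripts behind the amber bars were chosen for 0 leaf counts and those behind the other bars for at least 1.

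In some assembly groups all or nearly all transcripts were without leaf reads. The largest number of the 208 in one assembly group was 6, in an assembly group of 8 transcripts and 3 loci. These 6 were 298 to 1395 bases long and held 4541 flower counts in all, from 294 to 1705 each. The remaining 2 transcripts of that assembly group, with 63 and 65 flower counts, had no leaf read either. In another assembly group of 6 transcripts, 4 belonged to the 208, with 153, 316, 753 and 798 counts, and the 2 others had 9 and 12 flower counts and none in leaf. A single locus of 4 transcripts, 293 to 1395 bases long, consisted of such transcripts alone, with 148, 300, 481 and 708 counts.

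Other assembly groups joined such transcripts to ones that were well read in leaf. In an assembly group of 7, the transcripts of 1130 and 969 bases named above stood with 3 more of the 208 for a sum of 7451 flower counts and 0 in leaf. A 3635-base transcript of another component of that assembly group held 3007 flower and 2857 leaf counts. In an assembly group of 5, an 1800-base transcript held 1965 flower counts and none in leaf, while a 1471-base transcript of the same component but another locus held 53 in flower and 1773 in leaf. The 979-base transcript with 3972 flower counts lay in an assembly group of 11, whose 10 others held 535 flower and 379 leaf counts together. Of these examples, the 1471-base transcript was far higher in leaf, while the 3635-base one had similar counts in both tissues.

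The largest assembly group, of 19 transcripts, held 5 of the 208 with 2471 flower counts, and its other 14 held 18604 flower and 326 leaf counts. The 5 were 274 to 422 bases long. In this assembly group leaf reads were scarce throughout relative to flower, and the partner with the most flower counts, 925 bases long, had 4890 flower and 48 leaf counts.

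How many leaf reads a transcript would have had at the leaf to flower ratio of its partners was computed as a description. Partners here include others of the 208, whose leaf count the rule sets at 0. This lowers the number wherever a locus holds several of the 208. For the 25 of the 208 with leaf reads in their locus partners, the number had a median of 1 and a range of 0.0934 to 110.4. The highest value, 110.4, was that of an 1804-base transcript with 728 flower counts, whose locus partners had 199 leaf counts in all. A 2002-base transcript of the same locus, with 671 flower counts, also had no leaf read. Its 671 were counted as partner reads for the value of 110.4, while the partners outside the 208 held 641 flower counts. A 554-base transcript with 190 flower counts had 2 partners with 254 leaf counts, which would correspond to 43.6 leaf reads. At wider levels the numbers were larger, with a median of 4.20 for the 45 with leaf reads in component partners and 15.9 for the 73 by assembly group. The number exceeded 3.69, the Poisson upper limit for 0, in 7 of the 25, 24 of the 45 and 49 of the 73. Whether shared reads were placed with a partner in leaf was not tested.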

How the data were processed

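RNA was sequenced from 1 flower and 1 leaf library. Poly(A) RNA was selected with oligo(dT) and made into strand-specific libraries, per the labels' protocols. The submitters' processing notes list the tools Trimmomatic and RSEM, without versions. The sources used here name no assembler or aligner. The authors deposited expected counts, TPM, FPKM and a percent of each gene's expression per transcript, with lengths, per the file headers. That percent is 0 or 100 in these files and was not used. None of the expected counts was fractional (0 values). A joined table repeats the FPKM, and 0 of the 208 transcripts differed in either tissue.

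Transcripts were joined on their identifier and chosen by 100 or more flower and 0 leaf expected counts. The members and rules were chosen with earlier results of these data known. The rule for the transcripts described takes the 10 highest by FPKM and by count, the 3 longest and shortest, those at the thresholds, and the largest shared loci, assembly groups and partner leaf counts. At most 2 identifiers are printed, because the files pair none with a name. No test was made, and intervals are exact 95% Poisson or Clopper-Pearson intervals. Intervals and floors (3 counts) cover counting error only, since there was 1 library for each tissue. As a separate limit, reads carry no molecular identifiers. The selection and intervals were run on simulated Poisson counts in which the planted transcripts had a leaf mean of 0, so their recovery was fixed in advance. This checks the code only, since reads shared between isoforms and variation between plants were not simulated. Python 3.11.15, numpy 2.4.6, pandas 2.3.3 and scipy 1.17.1 were used, with edgeR 4.0.16 (TMM) and DESeq2 1.42.0 (size factors) in R 4.3.3 for alternative scalings of the expected counts, which were whole already.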

Additional observations from a re-analysis of the deposited data

How the results depend on the processing

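Of 38 alternatives, 14 stayed within their limit (1.5 times for a count, the exact 95% interval for a share or a median) and 24 moved beyond it. The number of transcripts was 356 with a minimum of 50 flower counts, 129 with 200, 362 with at most 3 leaf counts, 121 with counts summed per assembly group and 1385 with a flower FPKM of 10 in place of a count. The median FPKM was 36.7, 97.3, 53.3 and 14.01 with 50 counts, 200 counts, at most 3 leaf counts and the FPKM minimum. The median length was 997 bases with 50 counts, 310 with the FPKM minimum and 999.3 as effective length. The percent with a partner was 18.9 with the FPKM minimum, 52.4 by component and 63.0 by assembly group. The percent without leaf reads in the locus was 64.0 with at most 1 leaf count, 50.6 with at most 3 and 92.2 with the FPKM minimum, and it was 78.4 by component and 64.9 by assembly group. The median bound on the flower to leaf ratio was 63.6 with a floor at the Poisson limit, 234.7 with 1 count, 65.7 with TMM and 66.0 with size factors. Alternatives by assembly group, and the 78.4 by component, were added after seeing the data. Stricter or looser minimums change these values by leaving fewer or more transcripts, and for the other moves the cause was not tested. No paired analysis was possible because there is 1 library for each tissue, and neither could be left out. Depth limits what 0 leaf reads can show to levels above about 3 counts.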
